A study of Mus musculus with 6 samples.

Results

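The nuclear-encoded subunits of the respiratory chain and the ATP synthase were followed in pulldowns of hippocampal RNA from mice given ethynyluridine (EU) or vehicle as pups. Members were the protein-coding rows of the count table whose symbols follow the subunit nomenclature (Nduf with a, b, s, v or c, Sdh, Uqcr, Cox4 to Cox8, Atp5), and the prefix placed each in complex I to V. The rule found 84 rows among 55416 genes, of which 21885 are protein-coding: 37 of complex I, 4 of complex II, 8 of complex III, 17 of complex IV and 18 of complex V. These rows carry 83 symbols, because Atp5o is listed under 2 identifiers, and the second of them was at 0 counts in every library.

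EU is a uridine analogue that cells build into new RNA and that carries a chemical handle for coupling to biotin. In the EU group, mice received 50 mg/kg under the skin once a day from postnatal day 3 to postnatal day 5. In the PBS group, mice received an equal volume of phosphate-buffered saline on the same days. Hippocampi were dissected on postnatal day 36. Both kinds of RNA were coupled to biotin and pulled down on streptavidin in the same way, so the PBS libraries measure background binding. Each group had 3 libraries. The labels used here give no strain, sex or genotype and do not say whether replicates were separate animals, so p-values cover only the spread among these libraries, part of which may be technical.

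The respiratory chain passes electrons from NADH (complex I) and succinate (complex II) through complex III to oxygen at complex IV, and complexes I, III and IV pump protons across the inner mitochondrial membrane. Complex V, the ATP synthase, lets the protons back and makes ATP, which neurons spend largely on ion pumping and synaptic transmission. Most subunits are encoded in the nucleus and imported, while a small core of complexes I, III, IV and V is encoded in mitochondrial DNA, so the subunits of a complex are made from 2 genomes.

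Library totals lay between 39886723 and 58301239 counts. PBS replicate 2 stood apart from the others, with 19243 genes detected against 23816 to 26372 in the other libraries, and a mean correlation of 0.938 with them against 0.970 to 0.977. The 92 rows of spike-in RNA were at 0 in all libraries, so every value below is a share of a library and a change common to all RNA would not show. In bulk tissue such as this, fewer cells of a type and less RNA per cell cannot be told apart. The markers of hippocampal neurons were detected (10 of 10), with a summed level of 4207 to 4385 CPM (read counts scaled to a common library size) in EU and 4601 to 4839 CPM in PBS, which do not overlap. Of these 10, 6 had an unadjusted edgeR p under 0.05, all lower in EU, against 4.05% of all tested genes lower at that p. DESeq2 called 4 of them lower, against 1.35% of the genes to which it gave an adjusted p, and limma voom called 1, Hpca, lower. Neocortical and other regional markers (7 of 7 detected) summed to 237.6 to 303.7 CPM in EU and 184.8 to 246.9 CPM in PBS, and choroid plexus and ependymal markers (6 of 6 detected) to 766.6 to 3740 CPM in EU and 1713 to 5370 CPM in PBS. The part of these shifts in the results below was not tested.

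Transcription of many of these nuclear genes is known to depend on the factors NRF1, GABPA (also called NRF2) and YY1. RefSeq promoter windows, from 250 bases before to 50 bases after the gene start on GRCm38.p6, were matched by symbol for 68 of the 83 member symbols, among them Cox7b2, which was too low to test. Exact matches were sought on both strands. The NRF1 motif, GCGCA and GCGC with any base between them, was in a window of 17 members (25%), against 5.19% of all 27025 genes with a window and 10.4% of the 11652 tested protein-coding genes with one. The GABPA motif CCGGAAG was in 17 members (25%), against 9.93% of all genes and 17.8% of the tested coding genes. The YY1 motif AAGATGGC was in 10 members (14.7%), against 3.19% and 4.67%. At least 1 motif was found in 38 members (55.9%), and 6 members held 2 or more kinds. The median GC content of the member windows was 57.7%, against 52.7% for all windows, and GC-rich letters make up the NRF1 and GABPA motifs.

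The windows below show how these motifs sit near the start of 1 member each of complexes I, II, IV and V. Capitals mark the motif matches, on either strand. The first marked stretch of Cox6a1 matches the NRF1 motif on both strands, and no other matches overlapped. They are Ndufs6 (chr13:73328433-73328732), Sdhd (chr9:50603800-50604099), Cox6a1 (chr5:115348909-115349208) and Atp5g3 (chr2:73911277-73911576), all on the minus strand and written 5′ to 3′ along it.
Ndufs6: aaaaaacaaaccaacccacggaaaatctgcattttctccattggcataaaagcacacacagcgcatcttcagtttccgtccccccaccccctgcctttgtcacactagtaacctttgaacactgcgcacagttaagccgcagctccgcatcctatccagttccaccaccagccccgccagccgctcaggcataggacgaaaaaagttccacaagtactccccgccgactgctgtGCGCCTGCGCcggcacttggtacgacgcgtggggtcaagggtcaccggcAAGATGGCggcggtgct
Sdhd: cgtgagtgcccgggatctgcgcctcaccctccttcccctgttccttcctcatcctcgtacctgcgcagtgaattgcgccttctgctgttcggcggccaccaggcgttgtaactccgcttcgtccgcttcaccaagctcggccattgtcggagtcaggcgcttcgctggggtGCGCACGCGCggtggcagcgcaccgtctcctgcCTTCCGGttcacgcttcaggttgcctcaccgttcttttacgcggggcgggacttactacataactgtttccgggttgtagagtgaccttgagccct
Cox6a1: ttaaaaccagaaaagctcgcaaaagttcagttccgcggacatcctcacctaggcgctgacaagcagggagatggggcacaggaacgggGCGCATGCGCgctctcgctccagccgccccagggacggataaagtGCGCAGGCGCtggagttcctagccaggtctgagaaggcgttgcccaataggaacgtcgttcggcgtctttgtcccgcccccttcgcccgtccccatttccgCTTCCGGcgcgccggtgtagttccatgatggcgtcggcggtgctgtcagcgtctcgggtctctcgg
Atp5g3: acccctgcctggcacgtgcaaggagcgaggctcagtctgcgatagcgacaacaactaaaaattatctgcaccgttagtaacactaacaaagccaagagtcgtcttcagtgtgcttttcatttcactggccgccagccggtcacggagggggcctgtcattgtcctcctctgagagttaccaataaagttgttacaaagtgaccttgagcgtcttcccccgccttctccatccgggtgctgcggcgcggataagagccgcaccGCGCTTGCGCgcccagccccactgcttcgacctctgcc
Ndufs6 held an NRF1 match and, close to its start, a YY1 match, while Sdhd and Cox6a1 held NRF1 and GABPA matches and Atp5g3 an NRF1 match alone. By complex, NRF1 matches were found in 7 of 33 members of complex I, 2 of 3 of complex II, 1 of 5 of complex III, 1 of 12 of complex IV and 6 of 15 of complex V. YY1 matches were found in 7 of 33 members of complex I and 3 of 15 of complex V, and in 0 of the 20 windows of the other complexes. A match is only a run of letters, and none was tested for binding here.

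Respiratory chain mRNAs were abundant in the pulldowns of both groups. Together the members took 0.689%, 0.686% and 0.660% of all counts in EU replicates 1 to 3, and 0.680%, 0.667% and 0.684% in PBS replicates 1 to 3. The groups overlap, and the lowest value is that of EU replicate 3. Set per kilobase of transcript to compare genes of different length, and averaged over the 6 libraries, the median member of complex I lay at 47.5 CPM per kb, of complex II at 42.0, of complex III at 83.2, of complex IV at 104.6 and of complex V at 84.2. The median tested protein-coding gene lay at 5.91 CPM per kb. Length was that of the principal annotated transcript. With the longest transcript instead, an alternative chosen after seeing the data, the medians were 42.9, 40.2, 65.7, 53.7 and 73.3 CPM per kb in the same order, so the lead of complex IV depended on that choice.

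**Figure D1:**
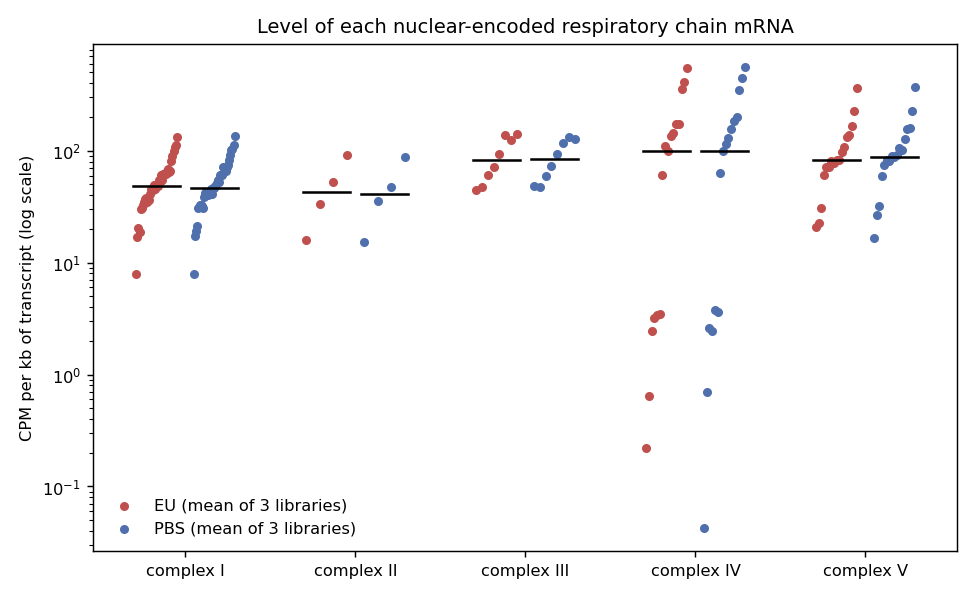
Mean level of each member in CPM per kb of transcript (log scale) by complex, for EU (red) and PBS (blue), 3 libraries each; lines are the median over members, and rows at 0 in a group are not drawn. The medians of EU and PBS lie side by side in each complex, and the low points of complex IV are its tissue-restricted isoforms.

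The comparison of EU with PBS asks which RNAs were retained since the days of labelling. In it 0 of the 81 tested members passed the threshold (edgeR quasi-likelihood test, Benjamini-Hochberg adjusted p under 0.05), against 0 of 18511 genes (0%). By this test no gene stood above the background measured in PBS. Levels in EU are therefore not shown to be those of labelled RNA, and a lower value in EU is no measure of retention. The other 3 rows, Cox7b2, Cox8c and the second Atp5o entry, were too low to test. At an unadjusted p under 0.05 there were 9 members (11.1%), 3 with higher and 6 with lower values in EU, against 7.88% of all tested genes (3.84% higher and 4.05% lower). The CPM of the groups did not overlap for 8 members (9.88%), 2 higher and 6 lower in EU, against 15.7% of all tested genes (8.52% higher and 7.18% lower). DESeq2, run as an alternative, called 1 of the 76 members to which it gave an adjusted p, against 2.46% of 11692 genes. That member was Atp5g1, and limma voom called 0 members. Without PBS replicate 2, 5 members had an unadjusted p under 0.05 (6.17%, against 10.03% of tested genes) and 15 did not overlap (18.5%, against 26.8%).

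The estimates were narrow, but not for this family alone. The median standard error of the log2 fold was 0.0835 for the members, against 0.168 for all tested genes and 0.131 for tested coding genes. The 95% interval of the fold of EU over PBS lay wholly within 1.5-fold in either direction for 75 of 81 members (92.6%), against 52.2% of all tested genes. For cytosolic ribosomal protein genes the median standard error was 0.0723, with 96.2% within 1.5-fold. For genes of pyruvate dehydrogenase and the citric acid cycle these values were 0.0655 and 94.4%. Of the 6 members with a wider interval, Cox4i2, Cox6a2, Cox6b2, Cox7a1 and Cox8b averaged at most 2.43 CPM, and the last, Atp5md, averaged 51.3 CPM. The median log2 fold was -0.02 over the members, against 0.01 over all tested genes, with 33 members above 0 and 48 below it. By complex the median was -0.01 for I, 0.05 for II, 0.00 for III, -0.07 for IV and -0.06 for V. Scaled by library totals alone, the median over the members was 0.00 and that over all tested genes 0.03. The lowest fold was that of Ndufb1 (-0.27) and the highest that of Cox8b (0.38). Cox8b averaged 1.02 CPM, the 95% interval of its log2 fold ran from -0.88 to 1.64, and leaving out 1 library moved the fold between 0.049 and 0.73.

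**Figure D2:**
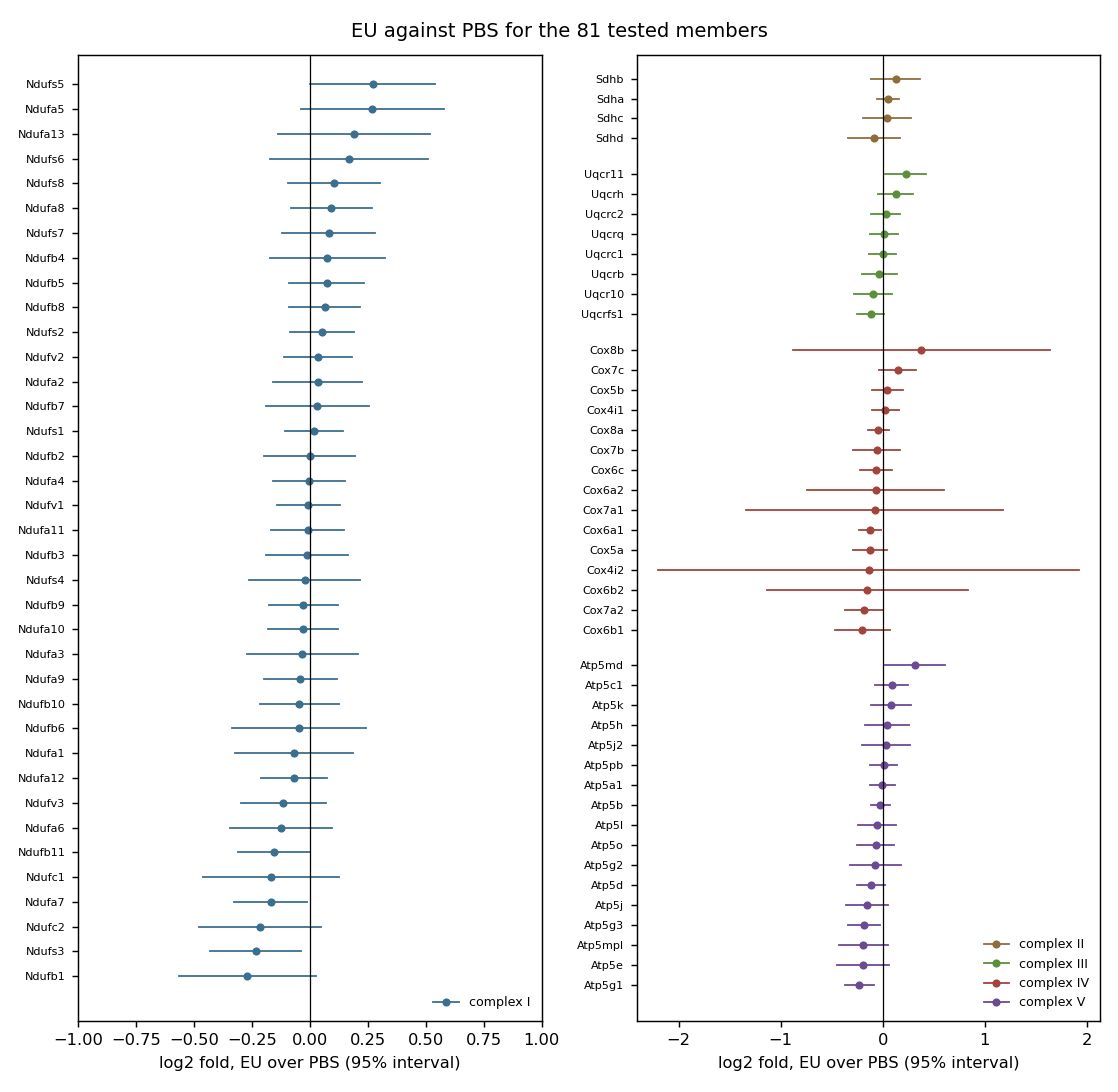
Log2 fold of EU over PBS for the 81 tested members with its 95% interval, complex I on the left and complexes II to V on the right, each panel on its own linear scale. Most intervals cross 0, all members of complexes I, II and III lie within 1.5-fold, and the long intervals belong to low complex IV isoforms.

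Complex I, NADH:ubiquinone oxidoreductase, was represented by 7 core and 30 accessory subunits. The core subunits carry the flavin and the iron-sulphur clusters along which electrons travel, and the accessory subunits surround them. The core summed to 473.6, 480.7 and 453.5 CPM in EU and 474.4, 448.2 and 471.1 CPM in PBS. The accessory subunits summed to 1415, 1382 and 1313 CPM in EU and 1357, 1370 and 1421 CPM in PBS. Both sums overlap between the groups. Ndufv1, which binds NADH and its flavin, averaged 79.6 ± 2.703 CPM in EU and 79.9 ± 1.96 CPM in PBS (SD, n = 3 each). Ndufs1, the largest iron-sulphur subunit, averaged 87.9 ± 1.65 CPM in EU and 86.8 ± 0.641 CPM in PBS. The 95% intervals of their log2 folds ran from -0.14 to 0.13 for Ndufv1 and from -0.11 to 0.14 for Ndufs1. Per kb, the highest member of the complex was the accessory subunit Ndufb9, at 134.6 CPM per kb.

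Ndufs3 (chr2:90724978-90735171, GRCm39, minus strand), a core subunit of the arm in the matrix, stood at 38.8, 37.4 and 38.6 CPM in EU, against 49.9, 40.4 and 44.7 CPM in PBS. All EU values lay below all PBS values, although PBS replicate 2 came close. By edgeR the log2 fold was -0.23 ± 0.087 (SE) with an adjusted p of 0.528. Without PBS replicate 2 the log2 fold of Ndufs3 was -0.31, and its edgeR adjusted p of 0.210 was the smallest of any member there. Ndufa7, an accessory subunit, stood at 34.9, 33.6 and 35.4 CPM in EU, against 38.8, 39.2 and 39.0 CPM in PBS, again without overlap (log2 fold -0.17 ± 0.070 SE, edgeR adjusted p = 0.587). These had the smallest p in the complex. Outside the rule for named genes, and picked after their values were seen, Ndufs5 and Ndufb11 complete the members of the complex whose groups did not overlap. Ndufs5, an accessory subunit, stood at 25.7, 24.9 and 24.7 CPM in EU, against 22.3, 17.1 and 22.9 CPM in PBS, higher in EU. A processed pseudogene, Ndufs5-ps, held 2224 counts over the 6 libraries, so reads may have been split between them. Ndufb11, an accessory subunit encoded on the X chromosome, stood at 51.0, 49.5 and 47.8 CPM in EU, against 54.3, 58.1 and 52.7 CPM in PBS. Their edgeR adjusted p values were 0.628 for Ndufs5 and 0.636 for Ndufb11, and without PBS replicate 2 the log2 fold of Ndufs5 was 0.15, against 0.27 with it.

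Ndufa4 is placed in complex I by its name, but the protein is known as a subunit of complex IV. It stood at 71.2, 70.8 and 64.9 CPM in EU and 72.7, 69.1 and 65.7 CPM in PBS. Moving it to complex IV leaves the median log2 fold there at -0.07 and that of complex I at -0.01.

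Complex II, succinate dehydrogenase, is also an enzyme of the citric acid cycle and is encoded wholly in the nucleus. Sdha, the flavoprotein that oxidises succinate, stood at 260.7, 266.6 and 263.0 CPM in EU and 253.5, 264.1 and 245.9 CPM in PBS. Sdhb, the iron-sulphur subunit, stood at 60.8, 62.0 and 55.6 CPM in EU and 53.3, 46.3 and 63.4 CPM in PBS. Both overlap between the groups, with 95% intervals of the log2 fold from -0.06 to 0.16 for Sdha and from -0.11 to 0.37 for Sdhb. The membrane anchors averaged 50.1 ± 6.60 CPM in EU and 48.6 ± 4.11 CPM in PBS for Sdhc, and 40.9 ± 3.40 CPM in EU and 43.3 ± 6.94 CPM in PBS for Sdhd (SD, n = 3 each). None of the 4 had an unadjusted p under 0.05, and the smallest edgeR adjusted p among them was 0.815. Per kb, Sdha lay at 89.3 and Sdhc at 15.6, so the mRNAs of a complex that holds 1 copy of each subunit were not equally abundant by this measure.

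In complex III, which passes electrons from ubiquinol to cytochrome c, the core and Rieske subunits summed to 335.4, 341.1 and 319.5 CPM in EU and 332.1, 330.7 and 342.9 CPM in PBS. The small subunits summed to 320.7, 300.3 and 288.2 CPM in EU and 299.0, 275.0 and 301.3 CPM in PBS. Uqcrc1, a core subunit, averaged 155.1 ± 5.41 CPM in EU and 155.2 ± 8.18 CPM in PBS (SD, n = 3 each). Uqcrfs1, the Rieske iron-sulphur protein, stood at 62.6, 61.6 and 59.4 CPM in EU, against 68.0, 65.3 and 66.2 CPM in PBS, with no overlap (log2 fold -0.12 ± 0.061 SE, edgeR adjusted p = 0.702). Uqcr11, a small subunit, went the other way, at 63.4, 59.7 and 61.3 CPM in EU, against 53.3, 45.8 and 58.7 CPM in PBS. Its groups did not overlap either, and by edgeR the log2 fold was 0.22 ± 0.091 (SE) with an adjusted p of 0.572, or 0.13 without PBS replicate 2. Per kb, the highest member by the principal transcript was Uqcrh, the hinge protein, at 134.0 CPM per kb, and by the longest transcript Uqcr10.

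Complex IV, cytochrome c oxidase, is the complex whose nuclear subunits come in tissue forms, some of them known from heart and skeletal muscle, lung or testis. The 10 main forms summed to 1466, 1418 and 1425 CPM in EU and 1449, 1543 and 1490 CPM in PBS, so the groups overlap in 1 EU library. The 7 other isoforms summed to 7.14, 8.603 and 5.41 CPM in EU and 7.41, 5.48 and 8.48 CPM in PBS. As averages over the 6 libraries in CPM per kb, Cox4i2 lay at 0.675 and Cox4i1 at 354.9, Cox6a2 at 3.57 and Cox6a1 at 424.9, and Cox6b2 at 3.56 and Cox6b1 at 187.0. Likewise Cox7a1 lay at 2.54 and Cox7a2 at 106.8, Cox7b2 at 0.131 and Cox7b at 62.0, and Cox8b at 2.83 and Cox8a at 551.1. The rarer form thus made up between 0.190% (Cox4i2) and 2.32% (Cox7a1) of its pair. Cox8c, known from testis, was at 0 counts in all 6 libraries, which allows up to 0.0748 CPM at the shallowest library by a limit of 3 counts.

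The rare forms were too few to compare firmly. Cox4i2, known from lung, had 17, 19 and 26 counts in EU and 14, 3 and 68 counts in PBS, and the 95% interval of its log2 fold ran from -2.20 to 1.93. Cox6a2, known from heart and skeletal muscle, averaged 2.37 ± 0.197 CPM in EU and 2.48 ± 0.652 CPM in PBS (SD, n = 3 each). Cox7b2 had 2, 7 and 6 counts in EU and 0, 0 and 4 counts in PBS and so was not tested.

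Among the main forms, Cox6a1 (chr5:115483701-115487040, GRCm39, minus strand) stood at 231.1, 232.6 and 233.7 CPM in EU, against 246.6, 260.1 and 251.8 CPM in PBS. The groups did not overlap, and the EU values lay within 3 CPM of each other. By edgeR the log2 fold was -0.12 ± 0.048 (SE) with an adjusted p of 0.556. Cox7a2 stood at 68.3, 61.1 and 68.0 CPM in EU, against 67.2, 80.8 and 76.9 CPM in PBS, overlapping through PBS replicate 1 (log2 fold -0.19 ± 0.084 SE, edgeR adjusted p = 0.630). Cox4i1, which takes part in the control of the oxidase by ATP, averaged 273.9 ± 8.95 CPM in EU and 269.2 ± 18.1 CPM in PBS. Cox5a, which joins it early in the assembly of the enzyme, averaged 93.4 ± 1.47 CPM in EU and 101.7 ± 9.27 CPM in PBS. Cox8a, the highest member of all per kb, averaged 298.7 ± 4.97 CPM in EU and 307.5 ± 3.22 CPM in PBS. Cox6b1 averaged 107.5 ± 5.39 CPM in EU and 123.6 ± 24.5 CPM in PBS, where replicate 2 alone held 150.9 CPM, and Cox7b averaged 60.7 ± 2.48 CPM in EU and 63.4 ± 10.1 CPM in PBS (SD, n = 3 each).

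**Figure D3:**
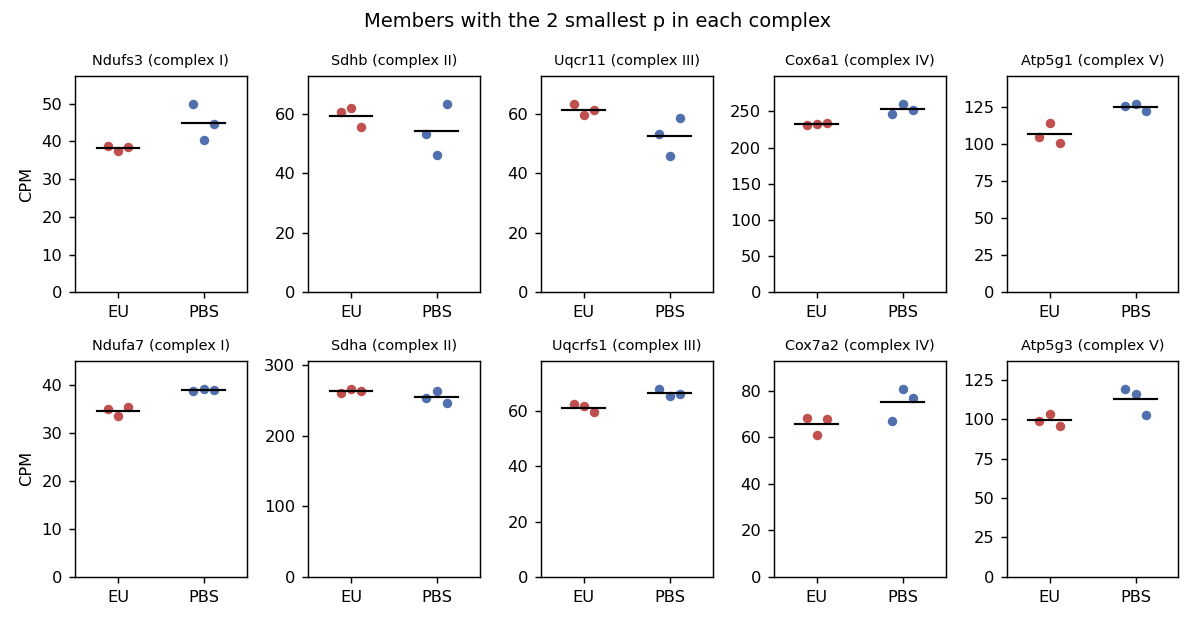
CPM of the 2 members with the smallest p in each complex, by library, EU (red) left of PBS (blue), with the mean of 3 libraries as a line and each axis starting at 0. Cox6a1 held 231.1 to 233.7 CPM in EU and 246.6 to 260.1 CPM in PBS, and none of the 10 passed the adjusted threshold.

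Complex V consists of the F1 head, where ATP is made, and a membrane part that holds the ring of c subunits turned by the proton flow. The F1 subunits Atp5a1, Atp5b, Atp5c1, Atp5d and Atp5e summed to 1544, 1606 and 1509 CPM in EU and 1598, 1521 and 1604 CPM in PBS. Atp5b, the catalytic beta subunit, averaged 699.7 ± 23.7 CPM in EU and 710.9 ± 2.04 CPM in PBS, and Atp5a1, the alpha subunit, 558.6 ± 16.5 CPM in EU and 559.8 ± 37.6 CPM in PBS (SD, n = 3 each). The 95% intervals of the log2 fold ran from -0.12 to 0.07 for Atp5b and from -0.13 to 0.12 for Atp5a1.

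Atp5g1, Atp5g2 and Atp5g3 encode the same mature c subunit with different import signals. Atp5g1 (chr11:95959678-95966496, GRCm39, minus strand) stood at 105.1, 114.5 and 100.9 CPM in EU, against 126.0, 127.1 and 122.6 CPM in PBS. All EU values lay below all PBS values. Its log2 fold was -0.23 ± 0.063 (SE), with a 95% interval from -0.37 to -0.09, an unadjusted edgeR p of 0.00484 and an adjusted p of 0.336, the smallest of any member. Under DESeq2 it was called lower in EU (adjusted p = 0.0257), as were 1.35% of the genes to which DESeq2 gave an adjusted p.

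Atp5g3 (chr2:73738791-73741670, GRCm39, minus strand), whose promoter window is printed above, stood at 98.97, 103.2 and 95.8 CPM in EU, against 119.3, 116.2 and 102.6 CPM in PBS. The groups overlap by less than 1 CPM, between EU replicate 2 and PBS replicate 3, and the log2 fold was -0.18 ± 0.071 (SE; edgeR adjusted p = 0.551). Atp5g2 stood at 23.2, 23.6 and 20.3 CPM in EU and 25.1, 20.6 and 24.8 CPM in PBS, which overlap. The 3 mRNAs summed to 227.3, 241.3 and 217.0 CPM in EU, against 270.4, 263.9 and 249.98 CPM in PBS, so the sums did not overlap. This sum was formed after its members' values were known and was not tested. The summed CPM of the 10 neuronal markers, given above, was also lower in EU without overlap. Singly, 6 of the 10 were without overlap, all lower in EU, against 15.7% of all tested genes. The part of these markers in the c-ring values was not tested.

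**Figure D4:**
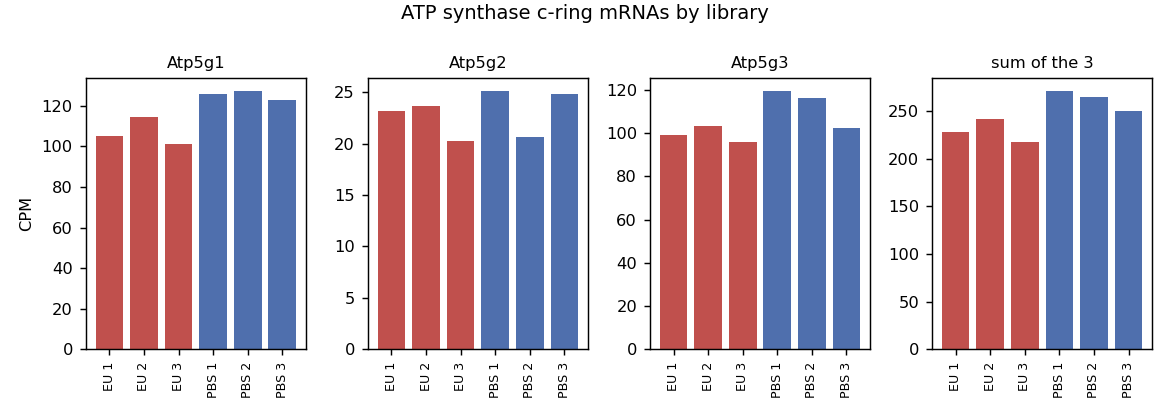
CPM of the 3 c-ring mRNAs and of their sum in each library, EU (red) left of PBS (blue), each axis starting at 0. Atp5g1 and the sum are lower in every EU library than in every PBS library, while Atp5g2 and Atp5g3 overlap.

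Among the other members of complex V, the log2 folds ran from -0.19 (Atp5mpl) to 0.31 (Atp5md), and that of Atp5mpl was -0.06 without PBS replicate 2. Atp5md, a small subunit of the membrane part that was picked after its values were seen, stood at 64.9, 51.0 and 54.5 CPM in EU and 53.4, 37.4 and 46.4 CPM in PBS. The groups overlap, since EU replicate 2 lay below PBS replicate 1, and the edgeR adjusted p was 0.602. Its log2 fold was 0.31, and 0.19 without PBS replicate 2.

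The spread between libraries had its own pattern. PBS replicate 2 held the lowest or the highest CPM of the 6 libraries for 49 of 81 members (60.5%), 24 lowest and 25 highest, and it did so for 63.0% of all tested genes. The other libraries did so for 18 to 26 members each. EU replicate 3 was the lowest of the 6 for 26 members and the highest for 0. Lowest and highest together, that is 32.1% of members, close to the 30.2% of all tested genes. The split into lowest and highest was not made for all genes. Among the 76 members at 10 CPM or more, the SD of the log2 deviation from the mean of the 6 libraries was 0.197 in PBS replicate 2 and 0.079 to 0.099 in the others. Its furthest members, picked for that, were both accessory subunits of complex I. Ndufa13 stood at 74.7, 77.8 and 74.7 CPM in EU and 73.5, 48.2 and 77.3 CPM in PBS, and Ndufb1 at 30.6, 30.8 and 27.7 CPM in EU and 30.5, 44.2 and 32.9 CPM in PBS. In both, only PBS replicate 2 left the range of the others by a wide margin, and without that library the log2 fold of Ndufa13 was 0.00, against 0.19 with it, and that of Ndufb1, the lowest of the family, was -0.10. Other folds lay further from 0 without PBS replicate 2, as that of Ndufs3 did. Ndufc1, picked after its values were seen, was at -0.31 without it (edgeR adjusted p = 0.247), against -0.17 with it.

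**Figure D5:**
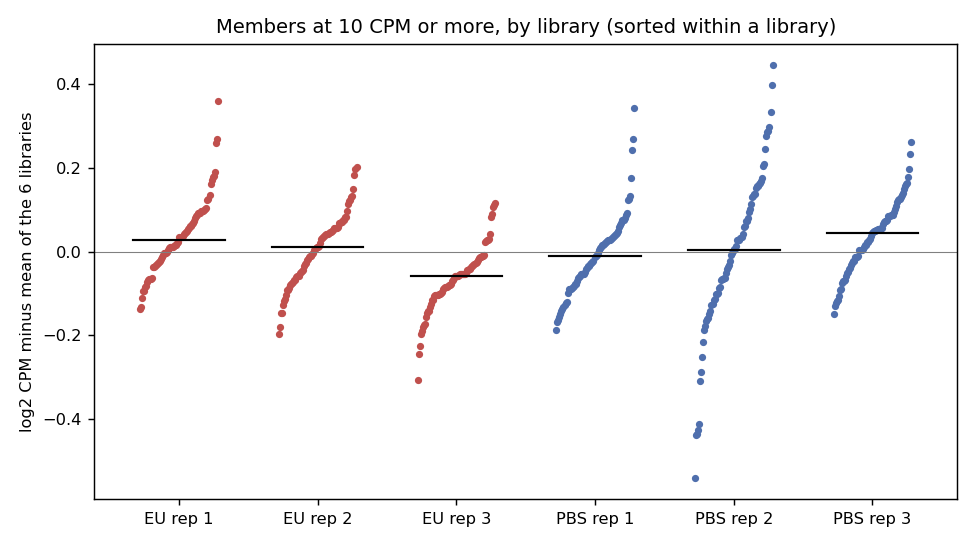
Log2 CPM of each of the 76 members at 10 CPM or more minus its mean over the 6 libraries, sorted within each library, EU (red) left of PBS (blue), with the median as a line. PBS replicate 2 spreads most widely, from -0.54 for Ndufa13 to 0.45 for Ndufb1, and EU replicate 3 lies mostly below 0.

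The mRNAs of the members were short, with a median longest annotated transcript of 983 bases, against 3458 bases for tested coding genes. Their uridine content, the base that EU replaces, had the same median of 24.7% in both sets. A member therefore offered a median of 242 uridines, against 856 for tested coding genes. Across the 81 tested members, log2 fold and uridine content in percent had a Pearson r of -0.01 and a Spearman rho of 0.00. For the number of uridines these were 0.02 and 0.15, against -0.005 and 0.02 across tested coding genes. All are a description over genes that share the same 6 libraries.

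Genes around the chain gave the same count of calls by edgeR, 0 in every list. At an unadjusted edgeR p under 0.05 stood 7.88% of all tested genes (3.84% higher and 4.05% lower in EU). There were 3 lower in EU among the genes of pyruvate dehydrogenase and the citric acid cycle (16.7%). Assembly factors had 1 higher and 2 lower (6.38%), and mitochondrially encoded subunits 2 higher (15.4%). Ribosomal proteins had 6 higher and 2 lower (10.3%), and the remaining lists 0. DESeq2 called Mdh2 and the ribosomal protein Rplp1 lower in EU and no other gene of these lists, and limma voom called 0. Of all genes to which DESeq2 gave an adjusted p, it called 1.35% lower. The 18 genes of pyruvate dehydrogenase and the citric acid cycle, which feed the chain, had a median log2 fold of -0.03, and the groups did not overlap for 7 of them (38.9%, against 15.7% of all tested genes), all 7 lower in EU. Without PBS replicate 2 there were also 7, all lower, against 26.8% of tested genes. In that setting 1 of the 18 had an unadjusted edgeR p under 0.05 (5.56%, against 10.03% of tested genes). The 7 without overlap over all 6 libraries were Mdh2, Cs, Idh3b, Idh3g, Sucla2, Dlat and Ogdh, named after their values were seen. Mdh2, mitochondrial malate dehydrogenase, stood at 177.2, 178.2 and 177.6 CPM in EU, against 204.3, 194.8 and 204.4 CPM in PBS (log2 fold -0.18 ± 0.050 SE, edgeR adjusted p = 0.339). Cs, citrate synthase, stood at 198.8, 207.4 and 199.8 CPM in EU, against 214.4, 243.5 and 219.3 CPM in PBS (log2 fold -0.16 ± 0.060 SE, edgeR adjusted p = 0.531).

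The 47 tested assembly factors, which build the complexes without staying in them, had a median log2 fold of -0.02, with 1 higher and 6 lower in EU without overlap (14.9%, close to the 15.7% of all tested genes). Of the 5 tested subunits and carriers outside the naming pattern, among them cytochrome c (Cycs), none was without overlap and the median was -0.01. The 14 regulators of mitochondrial gene expression had a median of 0.04. Ppargc1a, the coactivator PGC-1 alpha, averaged 69.3 ± 0.339 CPM in EU and 62.1 ± 5.14 CPM in PBS, and Yy1 averaged 71.8 ± 4.61 CPM in EU and 79.1 ± 4.46 CPM in PBS (SD, n = 3 each). They were the only 2 of that list without overlap (14.3%, close to the 15.7% of all tested genes). Their adjusted p values were 0.656 and 0.715 by edgeR. The 13 subunits encoded in mitochondrial DNA had a median of 0.08, against -0.02 for the nuclear members, a difference that was not tested. Their log2 folds ran from -0.36 to 0.92, with a median standard error of 0.163. Without overlap were 2 higher and 1 lower in EU (23.1%, against 15.7% of all tested genes). The 78 tested cytosolic ribosomal protein genes, another family of short abundant mRNAs, had a median of 0.07, with 11 higher and 1 lower in EU without overlap (15.4% in all, close to the 15.7% of all tested genes, of which 8.52% were higher and 7.18% lower).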

How the data were processed

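Total RNA of 6 hippocampal pulldowns, 3 EU and 3 PBS, was sequenced, and samples were grouped by their titles. The deposited values are raw read counts per gene, made by the authors without normalization. The submitters' processing notes name GRCm39 as the build and featureCounts 2.0.1, STAR 2.7.10b and bcl2fastq 2.20.0 as tools. Which annotation release, strand setting and feature were counted is not given in the sources, so reads of genes that overlap or have close copies may be misplaced. Of the 55508 rows, 92 spike-in rows (all at 0) were left out. No library was a copy of another (lowest chi-square per degree of freedom for any pair, 8.06).

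All genes were fitted together with edgeR 4.0.16 in R 4.3.3 (filterByExpr, TMM scaling, quasi-likelihood test, two-sided, treatment as the only term, Benjamini-Hochberg adjustment over all tested genes at 0.05). Standard errors were taken from the fold and its F statistic (absolute log2 fold over the root of F), and 95% intervals use the t distribution with the fit's degrees of freedom. CPM are those of edgeR, with TMM-scaled library sizes, while shares of counts use unscaled totals. Reads carry no molecular identifiers, so a floor of 3 counts covers counting error only. Level per kb divides CPM by the exon length of the APPRIS principal transcript (GENCODE M21, matched by gene identifier, no coordinates used). Promoter windows are RefSeq's on GRCm38.p6.

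The members, gene lists and tests were chosen with earlier results of these data known. Members were named by rule: the 2 smallest p and the highest level per kb in each complex, the core subunits, the genes with tissue isoforms and the c-ring genes, and any member past the threshold. This gave 33 names, of which 31 were tested. Alternatives were library totals, RLE factors, no filter or a stricter one, DESeq2 1.42.0, limma voom 3.58.1, the replicate number as a block, a loess offset for transcript GC content and length (available for 99.6% of tested genes), and leaving out each library. The counts without PBS replicate 2 and the level per kb of the longest transcript were added after seeing the data. The gene test was tested on simulated data. Figures were drawn with matplotlib 3.10.9.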

Additional observations from a re-analysis of the deposited data

How the results depend on the processing

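The count of genes past the threshold, 0 in the fit as reported, was 248 with no filter on low counts, 288 with DESeq2, 12 with limma voom, and 0 to 20 when 1 library was left out (1 without EU replicate 1 and 20 without PBS replicate 2). DESeq2 also gave the count of respiratory chain members called, and of named members called, as 1 (Atp5g1), while leaving out single libraries gave 0 throughout for both. The cause was not tested. The labels do not say that a replicate number marks a shared animal, litter or batch, and same-numbered EU and PBS libraries deviated together only weakly (correlations of 0.064, 0.024 and 0.098). Each library correlated best with its own number, as a hint from the data. With the replicate number as a block, 18 genes passed, and 0 members did.

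The median log2 fold of complex IV was negative in every setting run (-0.12 to -0.04 when 1 library was left out). So was that of complex V (-0.084 to -0.013, with -0.013 reached without EU replicate 3). These settings reuse the same 6 libraries, so a kept sign is no separate evidence. Summed CPM overlapped for complex IV (1473, 1427 and 1431 in EU, 1456, 1549 and 1499 in PBS). They also overlapped for complex V (2422, 2461 and 2312 in EU, 2469, 2411 and 2477 in PBS). The median log2 deviation of tested members from the mean of the 6 libraries overlapped for complex IV but not for complex V. The medians of complexes I (-0.03 to 0.02), II (-0.01 to 0.09) and III (-0.02 to 0.03) changed sign. Of the 31 named members tested, 15 kept their sign in every setting and 16 did not. With library totals alone the log2 fold was 0.020 for Atp5a1, 0.00056 for Atp5b, 0.017 for Ndufv1 and 0.022 for Uqcrc1. With no filter it was 0.0043 for Atp5a1, 0.0015 for Ndufv1 and 0.0060 for Uqcrc1. With the GC and length correction it was 0.0087 for Atp5a1, 0.00093 for Atp5g2, 0.016 for Cox8a, 0.012 for Ndufb9, 0.020 for Ndufv1 and 0.0076 for Uqcrc1. Cox4i2 was at 0.38 with limma voom and 0.47 with the replicate block, which also gave 0.0079 for Cox7a1. Leaving out 1 library gave ranges of -0.060 to 0.036 for Atp5a1, -0.032 to 0.053 for Cox4i1, -0.66 to 1.35 for Cox4i2, -0.26 to 0.12 for Cox6a2, -0.48 to 0.13 for Cox6b2, -0.42 to 0.23 for Cox7a1, -0.14 to 0.074 for Cox7b, -0.086 to 0.020 for Ndufb9, -0.00031 to 0.025 for Ndufs1, -0.030 to 0.018 for Ndufv1, -0.059 to 0.13 for Sdhc, -0.18 to 0.045 for Sdhd and -0.046 to 0.040 for Uqcrc1. Atp5g1 kept its direction throughout, at -0.29 to -0.20 when 1 library was left out. It was named for its small p, and all its EU values lay below all its PBS values. Leaving out 1 library could therefore hardly have turned its sign, so the kept direction is no further evidence.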
